A study of Mus musculus with 12 samples.

Results

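The interaction of Stat3 loss and Mdr2 loss was examined gene by gene in mouse liver, on all 12 arrays of the study. For each gene, the change in log2 signal with Stat3 deletion was computed on the Mdr2 knockout and without it, and the second was subtracted from the first. This difference of the Stat3 effects is 0 where Stat3 deletion changes a gene by the same factor in both Mdr2 genotypes. Transcript levels were measured on microarrays in total RNA of whole liver from mice aged 2 weeks. Of the 4 genotypes, with 3 arrays each, the first was Stat3Fl/Fl, which carries floxed Stat3 alleles and no deletion and is called floxed here. The second was Stat3Δhc, in which Stat3 is deleted. The third, Stat3Fl/FlMdr2-/-, carries the floxed alleles on an Mdr2 knockout and is called Mdr2-/- floxed. The fourth, Stat3Δhc Mdr2-/-, carries both losses and is called double mutant. The Cre driver, the strain and the sex are not given in the sources used here, and neither is whether each array is a separate animal, so that the p-values measure the spread between these arrays, which may be technical. The arrays are named A, B and C within a genotype, and values are listed in that order throughout.

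STAT3 is a transcription factor that is activated downstream of interleukin 6 type cytokines and of growth hormone, and in hepatocytes it drives the acute phase response, the secretion of defence and clotting proteins during inflammation. Mdr2, encoded by Abcb4, carries phospholipid across the canalicular membrane into bile. Without it, bile acids are not buffered by phospholipid, bile ducts are injured, and the mouse liver develops inflammation and scarring around the ducts that resemble sclerosing cholangitis. A comparison of both Stat3 effects addresses which genes depend on Stat3 in a liver with this bile injury, which depend on it without the injury, and which depend on it in both.

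The targeted genes followed the sample titles on every array. Stat3 read 9.19, 9.32 and 9.19 on the log2 scale in floxed liver, 7.71, 7.73 and 7.69 in Stat3Δhc liver, 9.37, 9.27 and 9.54 in Mdr2-/- floxed liver, and 8.12, 7.80 and 7.82 in the double mutant. Deletion lowered it 2.88-fold without the knockout and 2.79-fold on it, so that its own difference of effects was 0.04 (SE 0.14, limma adjusted p = 0.875, Benjamini-Hochberg). Abcb4 had a difference of -0.10 (SE 0.19, adjusted p = 0.791). For the 6 Mdr2-/- arrays the source field of the labels names the opposite Stat3 genotype to the other fields, and the Stat3 signal followed the title. Which probes lie in the deleted parts is not given in the sources used here.

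The arrays also differed in ways that the genotype names do not cover. Xist, the RNA of the inactive X chromosome, was high and Y-linked transcripts were low in the 3 Mdr2-/- floxed arrays and in array A of the double mutant. The other 8 arrays had the opposite pattern. The pattern therefore splits the double mutant and runs with the Stat3 effect on the knockout. It also separates all floxed from all Mdr2-/- floxed arrays. Values given for Mdr2 loss in floxed liver therefore cannot be told apart from the pattern. In Stat3Δhc liver the pattern runs with Mdr2 loss in part, through array A of the double mutant. The pattern was entered as a term of the model in an alternative fit, called the pattern model below. Values from that fit are given for the genes past 0.05, for the larger differences past 0.10, and for other autosomal genes named below where they differ by over 1.5 times. For Stat3 and Abcb4 the differences in that fit were 0.25 (adjusted p = 0.889) and 0.20 (adjusted p = 0.926). Skeletal muscle genes (25 on the array) averaged 8.19 to 8.90 on the log2 scale on the arrays that lack the knockout and 5.54 to 5.88 on those that carry it. For 18 exocrine pancreas genes these ranges were 5.46 to 9.51 and 5.26 to 5.52. Hepatocyte markers were high on all arrays, with albumin (Alb) between 13.65 and 13.89. Array medians lay between 6.01 and 6.14, arrays of a genotype correlated at 0.976 to 0.991, and the number of arrays limits the precision.

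Few genes passed the test for a Stat3 effect that differed between the Mdr2 genotypes. Of 13977 genes tested, 10 passed an adjusted p of 0.05 for the difference, which is 0.0715 percent (0.0143 percent positive and 0.0572 percent negative). The difference was positive for Igf2 and Olig1 and negative for Cyp3a16, Cyp4a31, Fgl1, Abcc3, Ecm1, Efemp1, Ctns and Tenm3. At an adjusted p of 0.10, 56 genes passed (0.401 percent), 17 with a positive (0.122 percent) and 39 with a negative difference (0.279 percent). At an unadjusted p of 0.05 it was 2360 genes (16.9 percent, with 6.67 percent positive and 10.2 percent negative). This share is above the one that such a threshold gives on average where no gene differs. The short list of passing genes does not by itself mean that few genes differ. Genes on the same arrays are not independent, so that this share does not give how many differ either. The Stat3 effects themselves were called for 361 genes without the knockout (2.58 percent, with 1.51 percent higher and 1.07 percent lower) and for 806 genes on it (5.77 percent, with 1.87 percent higher and 3.9 percent lower). Mdr2 loss was called for 12.8 percent of genes in floxed liver, where the Xist pattern runs with it. In Stat3Δhc liver it was called for 17.4 percent, and there the pattern runs with it in part. The median standard error was 0.11 for an effect and 0.155 for the difference.

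The 56 genes were sorted by the size of both effects, counting an effect as present from 0.5 on the log2 scale. In 24 genes an effect was present only on the knockout (appearing), and 21 of these had a negative difference. In 14 genes an effect was present only without the knockout (masked). In 4 genes the effect was present in both with the same sign but was smaller on the knockout (weakened), and in 1, Fgl1, it was larger (strengthened). Afp alone had effects of opposite sign that both reached this size (reversal), although only the effect without the knockout passed the test. The remaining 12 had neither effect at 0.5. These classes use the contrast that selected the genes and describe them only. With the limit set at 0.3, reversals numbered 15 and the 12 small ones were all reassigned.

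**Figure D1:**
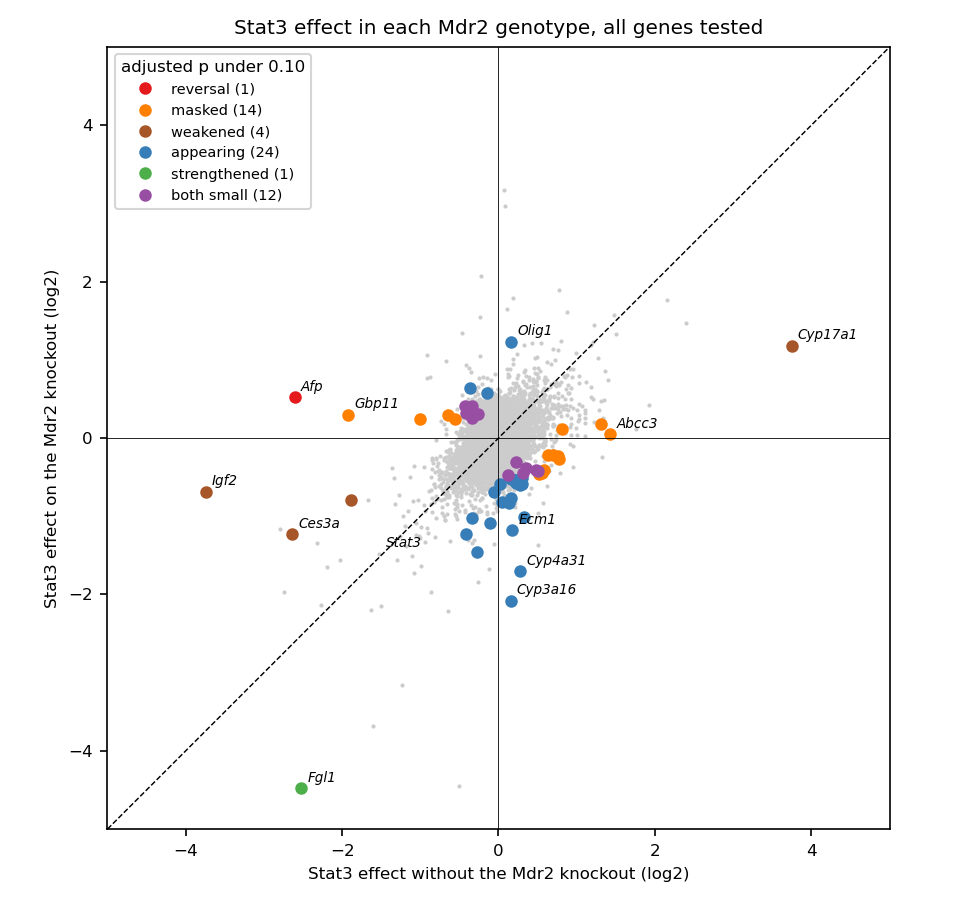
Stat3 effect without the Mdr2 knockout (horizontal axis, log2) against the Stat3 effect on the knockout (vertical axis, log2) for the 13977 genes tested. Coloured points are the 56 genes with an adjusted p under 0.10 for the difference, coloured by class. Igf2 lies at -3.74 and -0.68, Fgl1 at -2.52 and -4.48, and Stat3 lies near the diagonal at -1.52 and -1.48.

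Across all genes the 2 effects, which share no array, were weakly related (Pearson r 0.354, Spearman rho 0.147 across 13977 genes, which are not independent replicates), and 51.2 percent had the same sign. Among the 361 genes called without the knockout, 318 (88.1 percent) kept their sign on it, with a median size of 0.616 without the knockout and a median of 0.363, in the same direction, on it. These genes were chosen by the first value, so that the medians are not to be compared. Of all called genes, 135 were called in both (37.4 percent of the 361 and 16.7 percent of the 806), and 134 of these had the same sign. The exception was Efemp1.

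Among hepatocyte-secreted proteins, Fgl1 had a Stat3 effect that was larger on the knockout. Fgl1 encodes a fibrinogen-related protein that hepatocytes release. It read 11.65, 12.01 and 12.02 in floxed liver and 9.37, 9.07 and 9.68 in Stat3Δhc liver. On the knockout it read 11.24, 11.94 and 12.07 in floxed liver and 7.06, 7.46 and 7.28 in the double mutant. The floxed arrays of both Mdr2 genotypes overlapped, Stat3Δhc was below them, and the double mutant was lowest without overlap with any other group. The fall with Stat3 deletion was 5.74-fold without the knockout and 22.3-fold on it, and the effects differed by -1.96 (SE 0.29, adjusted p = 0.038). Mdr2 loss lowered Fgl1 4.30-fold in Stat3Δhc liver (adjusted p = 4.18e-05), against a log2 change of -0.15 in floxed liver (adjusted p = 0.71).

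Fgl1 was the only member of 23 tested acute phase genes to pass for the difference. The list's median difference was -0.20, against -0.04 over all genes tested. Its members were positive in 6 and negative in 17 cases. Over all 13977 genes tested these counts were 6197 and 7780, which is the base for the sign counts of the lists below. Saa4, which encodes a constitutive serum amyloid, had a difference of -1.07 (SE 0.25, adjusted p = 0.139), and Mt2, a metallothionein, had -1.02 (SE 0.28, adjusted p = 0.223). The list's mean level was 9.68 to 9.78 in floxed arrays and 9.97 to 10.73 in Mdr2-/- floxed arrays, while both deleted groups lay between 9.27 and 9.46. In the pattern model the list's median difference was 0.01. In the JAK-STAT list, which holds Stat3's own pathway, 0 of 19 tested genes passed at 0.05 or 0.10 and 0 passed an unadjusted p of 0.05. The feedback inhibitors Socs3 and Socs1 had differences of 0.44 (adjusted p = 0.338) and 0.32 (adjusted p = 0.491), and the latter was 0.02 in the pattern model.

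Igf2 had the largest difference among the called genes. It encodes a fetal growth factor that is silenced in mouse liver after birth. Without the knockout it read 11.58, 12.32 and 12.35 in floxed liver and 8.26, 7.96 and 8.79 in Stat3Δhc liver. On the knockout it read 11.60, 11.54 and 10.75 in floxed liver and 10.84, 10.96 and 10.05 in the double mutant. Only Stat3Δhc liver stood apart. Both groups on the knockout overlapped. Stat3 deletion lowered Igf2 13.4-fold without the knockout (log2 change -3.74, adjusted p = 5.87e-05), against -0.68 on it (adjusted p = 0.163), and the difference was 3.06 (SE 0.43, adjusted p = 0.038). Mdr2 loss raised Igf2 4.84-fold in Stat3Δhc liver (adjusted p = 0.000416), against a log2 change of -0.78 in floxed liver (adjusted p = 0.114).

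Other fetal and imprinted genes had the same direction of difference at the wider threshold. Afp, the fetal serum protein, read 10.02, 11.89 and 11.43 in floxed liver, 8.75, 7.85 and 8.92 in Stat3Δhc liver, 9.79, 9.84 and 9.50 in Mdr2-/- floxed liver, and 10.83, 10.05 and 9.81 in the double mutant. Floxed array A lay within the range of the double mutant, and Stat3Δhc liver was lowest without overlap. The effect was -2.61 without the knockout (adjusted p = 0.00686) and 0.52 on it (adjusted p = 0.412), so that the effects were apart by 3.13 (SE 0.58, adjusted p = 0.0715). Meg3, an imprinted RNA that is not translated, had effects of -1.0 (adjusted p = 0.0122) and 0.24 (adjusted p = 0.377), and they differed by 1.24 (SE 0.25, adjusted p = 0.0907). Of 18 tested genes of the fetal and imprinted list, 1 passed at 0.05 and 3 at 0.10, all positive, and the list's median was 0.19. In the growth hormone and IGF list, 0 of 15 tested genes passed. Igfbp3, the main carrier of circulating IGF1, had a difference of -0.92 (SE 0.21, adjusted p = 0.126). Igf1 fell in both Mdr2 genotypes, by 0.82 (adjusted p = 0.00161) and by 1.27 (adjusted p = 5.89e-05) on the log2 scale, and its difference was -0.45 (adjusted p = 0.226).

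Abcc3, which exports bile acid and drug conjugates from hepatocytes back to the blood, was the called gene whose Stat3 effect was masked on the knockout. It read 7.84, 7.82 and 7.97 in floxed liver and 9.38, 9.52 and 9.02 in Stat3Δhc liver. On the knockout it read 8.63, 8.36 and 8.74 in floxed liver and 8.73, 8.32 and 8.82 in the double mutant. Floxed liver was lowest, Stat3Δhc was highest, and both groups on the knockout overlapped between them. Stat3 deletion raised Abcc3 2.70-fold without the knockout (adjusted p = 0.000576), against a log2 change of 0.05 on it (adjusted p = 0.845), and the effects differed by -1.38 (SE 0.22, adjusted p = 0.0387). Abcc3 was 1.62-fold higher in Mdr2-/- floxed than in floxed liver (adjusted p = 0.0098), groups that also differ in the Xist pattern. It was 1.6-fold lower in the double mutant than in Stat3Δhc liver (adjusted p = 0.00993).

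The other bile transporters had smaller or less certain differences. Among 13 tested genes of canalicular and basolateral export, Abcc3 was the only one to pass, with a list median of -0.20. Slco1a4, an uptake carrier of bile acids and organic anions, read 10.62, 9.60 and 9.99, then 11.31, 11.32 and 11.24, then 11.19, 11.13 and 10.91, and then 11.52, 11.35 and 10.97 in the order of genotypes used above. Its effect was 1.22 without the knockout (adjusted p = 0.00959) and 0.20 on it (adjusted p = 0.522), with a difference of -1.02 (SE 0.29, adjusted p = 0.224). Slco1a1, another carrier of this family, read 3.56 to 3.99 on the arrays that lack the knockout, under the lower quartile of every array (4.60 to 4.74). On the knockout it read 8.46, 9.53 and 9.25 in floxed liver and 8.27, 6.85 and 6.61 in the double mutant, and its difference was -1.57 (SE 0.50, adjusted p = 0.224). In the pattern model its difference was -0.54. Slco1a1 entered the test only through the knockout arrays, so that its effect without the knockout is a difference between values near the bottom of the scale. The other 8 tested uptake transporters also had negative differences, as had 7780 of the 13977 genes tested. The median with Slco1a1 included was -0.47, and 0 passed. Of 18 tested genes of bile acid synthesis and conjugation 0 passed, with a median of -0.23. Cyp39a1, an oxysterol hydroxylase, rose by 1.31 without the knockout (adjusted p = 0.00119), against 0.47 on it (adjusted p = 0.089), so that the effects were apart by -0.83 (SE 0.23, adjusted p = 0.212), or by -0.49 in the pattern model.

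Among enzymes of drug and lipid metabolism, Cyp3a16 and Cyp4a31 had a Stat3 effect on the knockout only. Cyp3a16 is a cytochrome P450 of the steroid and drug oxidising family that is expressed early in life. It read 11.05, 10.87 and 11.08 in floxed liver and 11.26, 11.11 and 11.09 in Stat3Δhc liver, and 10.39, 10.96 and 9.74 in Mdr2-/- floxed liver against 8.66, 8.22 and 7.97 in the double mutant. The double mutant was lowest without overlap. The effect was 0.16 without the knockout (adjusted p = 0.813) and a 4.22-fold fall on it (adjusted p = 0.000946), and they differed by -2.23 (SE 0.34, adjusted p = 0.038).

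Cyp4a31 belongs to the fatty acid hydroxylases that the lipid sensor PPAR alpha induces. It read 9.59, 9.61 and 9.44 in floxed liver, 9.77, 9.68 and 10.01 in Stat3Δhc liver, 9.34, 9.48 and 8.94 in Mdr2-/- floxed liver, and 8.17, 7.40 and 7.09 in the double mutant, which again was lowest without overlap. The effect was 0.27 (adjusted p = 0.605) without the knockout and a 3.25-fold fall on it (adjusted p = 0.00185), and the effects differed by -1.97 (SE 0.31, adjusted p = 0.0387). Both families hold near-identical copies, so that the probes of Cyp3a16 and Cyp4a31 may read relatives as well, and the assignment to the named gene is uncertain. Of 30 tested PPAR alpha target genes, Cyp4a31 alone passed, and 24 had a negative difference (median -0.18), against 7780 of all 13977 genes. Cyp4a10 of the same family had a difference of -1.24 (SE 0.32, adjusted p = 0.202), and of -0.53 in the pattern model.

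Further enzymes passed at the wider threshold. Cyp17a1, a steroid hydroxylase and lyase, read 7.12, 5.61 and 6.27 in floxed liver, 9.57, 10.32 and 10.36 in Stat3Δhc liver, 6.43, 6.79 and 6.71 in Mdr2-/- floxed liver, and 7.49, 8.41 and 7.56 in the double mutant. Deleted liver was above floxed liver in both Mdr2 genotypes without overlap. Stat3 deletion raised Cyp17a1 13.4-fold without the knockout (adjusted p = 0.000151), against a log2 change of 1.18 on it (adjusted p = 0.0591), so that the effects were apart by -2.57 (SE 0.48, adjusted p = 0.0715). Ces3a, a carboxylesterase, fell 6.24-fold without the knockout (adjusted p = 1.08e-05) and 2.35-fold on it (adjusted p = 0.00303), and they differed by 1.41 (SE 0.25, adjusted p = 0.0699). Keg1, a glycine N-acyltransferase relative, fell by 1.89 (adjusted p = 1.81e-05) and by 0.79 (adjusted p = 0.00682), and the effects differed by 1.10 (SE 0.19, adjusted p = 0.0699). Me1, which makes NADPH for fatty acid synthesis, had an effect of 0.32 without the knockout (adjusted p = 0.346) and fell by 1.01 on it (adjusted p = 0.00492), so that the effects were apart by -1.33 (SE 0.23, adjusted p = 0.0699). Me1 read 8.45, 8.12 and 8.09, then 8.51, 8.35 and 8.76, then 9.26, 8.95 and 8.62, and then 7.76, 8.05 and 8.0, with Mdr2-/- floxed liver highest in mean and the double mutant lowest.

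**Figure D2:**
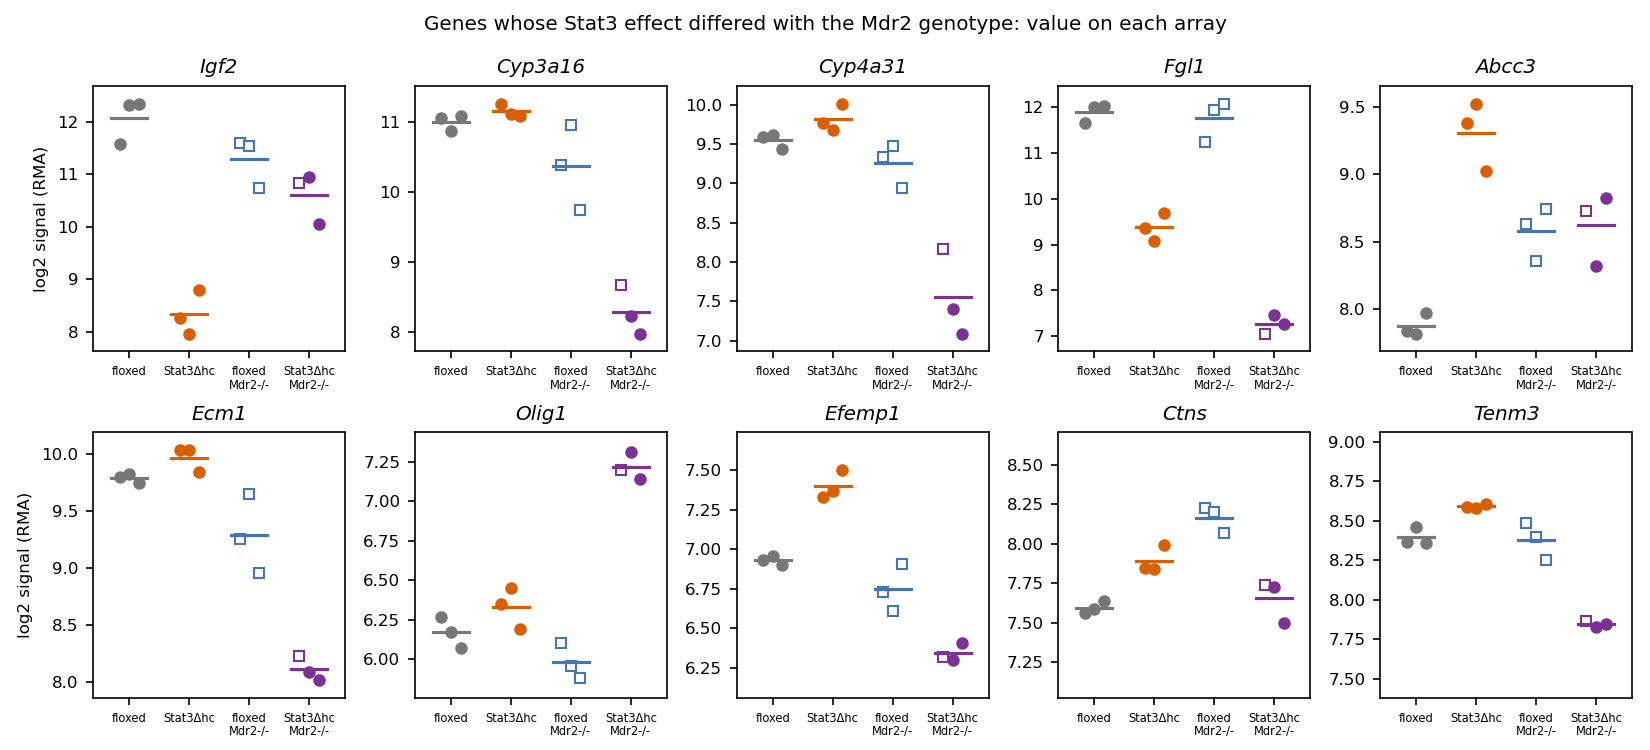
Log2 signal (vertical axis) on each of the 12 arrays for the 10 genes with an adjusted p under 0.05 for the difference, by genotype (horizontal axis, 3 arrays each). Points are arrays, filled circles for the Y-linked and open squares for the Xist pattern, and bars are group means. Igf2 is low in Stat3Δhc liver only, Abcc3 is high there only, and Cyp3a16, Cyp4a31, Fgl1 and Ecm1 are lowest in the double mutant.

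Genes of the matrix and of liver stroma formed the next group. Ecm1 encodes a secreted matrix protein that is known to hold latent TGF beta inactive in the liver. It read 9.80, 9.82 and 9.74 in floxed liver and 10.03, 10.03 and 9.84 in Stat3Δhc liver, and 9.25, 9.65 and 8.96 in Mdr2-/- floxed liver against 8.23, 8.09 and 8.02 in the double mutant. The Mdr2-/- floxed arrays lay under both groups without the knockout, and the double mutant lay lower still without overlap. The effect was 0.18 without the knockout (adjusted p = 0.588) and a 2.25-fold fall on it (adjusted p = 0.00101), and they differed by -1.35 (SE 0.20, adjusted p = 0.038). Ecm1 was 1.41-fold lower in Mdr2-/- floxed than in floxed liver (adjusted p = 0.032), groups that also differ in the Xist pattern. It was 3.61-fold lower in the double mutant than in Stat3Δhc liver (adjusted p = 3.78e-06).

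Efemp1, which encodes the matrix protein fibulin 3, was the only gene called in both Mdr2 genotypes with opposite sign. It read 6.93, 6.96 and 6.90 in floxed liver, 7.33, 7.37 and 7.5 in Stat3Δhc liver, 6.73, 6.61 and 6.91 in Mdr2-/- floxed liver, and 6.32, 6.30 and 6.41 in the double mutant. Stat3Δhc was highest and the double mutant lowest, with no overlap between deleted and floxed arrays in either Mdr2 genotype. It rose by 0.47 without the knockout (adjusted p = 0.0165) and fell by 0.41 on it (adjusted p = 0.0215), and the effects differed by -0.88 (SE 0.13, adjusted p = 0.038). Tenm3, a cell adhesion protein of the teneurin family, read 8.37, 8.46 and 8.36 in floxed liver, 8.59, 8.58 and 8.61 in Stat3Δhc liver, 8.49, 8.40 and 8.25 in Mdr2-/- floxed liver, and 7.87, 7.83 and 7.85 in the double mutant. Its effect was 0.20 without the knockout (adjusted p = 0.22) and a fall of 1.45-fold on it (adjusted p = 0.00345), so that the effects were apart by -0.73 (SE 0.11, adjusted p = 0.038). The deleted arrays were above the floxed arrays without the knockout and below them on it. Such separation of the groups was found for 25.1 percent of all genes tested without the knockout and for 28.6 percent on it, in either direction. Hhip, an inhibitor that binds hedgehog ligands, read 6.93, 6.94 and 6.91, then 6.61, 6.76 and 6.57, then 6.61, 6.55 and 6.04, and then 5.17, 4.64 and 5.03, with a difference of -1.18 (SE 0.22, adjusted p = 0.0715).

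Markers of stellate and endothelial cells were lowest in the double mutant, beside these matrix genes. The mean level of 16 stellate cell markers, a list that also holds Ecm1, lay between 7.5 and 7.63 in the double mutant and between 7.86 and 8.11 in the other 9 arrays. For 17 endothelial markers these ranges were 8.32 to 8.54 and 8.64 to 8.80. Of 15 tested stellate markers, Ecm1 alone passed, and 13 had a negative difference (median -0.24), against 7780 of all 13977 genes. Lrat, which stores vitamin A in stellate cells, read 8.49, 8.41 and 8.41, then 8.20, 8.14 and 8.21, then 8.55, 8.23 and 8.06, and then 7.70, 7.21 and 7.14, with a difference of -0.67 (SE 0.20, adjusted p = 0.224). In the pattern model the difference for Lrat was -0.32. The endothelial list had 14 negative members of 17 (median -0.31), 0 passed, and the vascular growth factor receptor Flt4 had a difference of -0.37 (SE 0.11, adjusted p = 0.224). Fewer cells of a type and less RNA per cell cannot be told apart in whole liver, and their part in the Ecm1, Efemp1 and Tenm3 results was not tested. Of 34 tested extracellular matrix and fibrogenic genes, Ecm1 alone passed, with a list median of 0.07. The collagen gene Col1a1 fell by 0.54 without the knockout (adjusted p = 0.0317), while on it the effect was positive, 0.24 (adjusted p = 0.207), and they differed by 0.78 (SE 0.17, adjusted p = 0.111).

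Ctns and Olig1 completed the 10. Ctns exports cystine from lysosomes. It read 7.56, 7.59 and 7.64 in floxed liver, 7.85, 7.84 and 7.99 in Stat3Δhc liver, 8.23, 8.20 and 8.07 in Mdr2-/- floxed liver, and 7.74, 7.73 and 7.5 in the double mutant. Ctns was 1.48-fold higher in Mdr2-/- floxed than in floxed liver (adjusted p = 0.00134), groups that also differ in the Xist pattern. Mdr2-/- floxed liver was highest without overlap. The Stat3 effect was 0.29 without the knockout (adjusted p = 0.0975) and a 1.42-fold fall on it (adjusted p = 0.00752), and the effects differed by -0.80 (SE 0.12, adjusted p = 0.0387). Olig1, a helix-loop-helix transcription factor known from the oligodendrocyte lineage, read 6.27, 6.17 and 6.07 in floxed liver, 6.35, 6.45 and 6.19 in Stat3Δhc liver, 6.10, 5.96 and 5.88 in Mdr2-/- floxed liver, and 7.20, 7.31 and 7.14 in the double mutant. The double mutant alone was high, and the other 3 groups lay near the array medians. Stat3 deletion raised Olig1 2.35-fold on the knockout (adjusted p = 4.3e-05), against 0.16 on the log2 scale without it (adjusted p = 0.45), so that the effects were apart by 1.07 (SE 0.14, adjusted p = 0.038).

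Further masked genes at the wider threshold have roles in immunity, stress signalling and transport. Gbp11, of the interferon-induced guanylate binding proteins, read 9.22, 9.69 and 9.27 in floxed liver, 7.56, 7.66 and 7.19 in Stat3Δhc liver, 7.76, 9.07 and 7.94 in Mdr2-/- floxed liver, and 9.02, 8.34 and 8.30 in the double mutant. Both groups on the knockout overlapped and lay below floxed liver. The effect was -1.93 without the knockout (adjusted p = 0.00594) and 0.30 on it (adjusted p = 0.51), and they differed by 2.22 (SE 0.42, adjusted p = 0.0715). Slc16a10, a transporter of aromatic amino acids, rose by 1.31 without the knockout (adjusted p = 0.00119), against 0.18 on it (adjusted p = 0.466), and the effects differed by -1.12 (SE 0.23, adjusted p = 0.0907). Dusp1, a phosphatase that switches off MAP kinases, rose by 0.77 (adjusted p = 0.0184), against -0.27 on the knockout (adjusted p = 0.251), so that the effects were apart by -1.04 (SE 0.21, adjusted p = 0.0907). Mfsd4b3-ps, annotated as a pseudogene of a transporter family, falls in this class by size only. Its effects were 0.56 (adjusted p = 0.0641) and -0.45 (adjusted p = 0.0788), neither of them called, with deleted arrays above the floxed ones without the knockout and below them on it, and the difference was -1.01 (SE 0.21, adjusted p = 0.0932).

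Genes with smaller effects of opposite sign made up the rest of the named genes at this threshold. Mamdc2, a proteoglycan gene, had effects of 0.32 (adjusted p = 0.134) and -0.45 (adjusted p = 0.0287) and a difference of -0.77 (SE 0.15, adjusted p = 0.0809). Ptdss1, a phosphatidylserine synthase, had 0.35 (adjusted p = 0.107) and -0.39 (adjusted p = 0.055) and a difference of -0.74 (SE 0.15, adjusted p = 0.0971). The lipoxygenase gene Alox15 had -0.34 (adjusted p = 0.127) and 0.41 (adjusted p = 0.0489) and a difference of 0.75 (SE 0.16, adjusted p = 0.0971). Igdcc4, an immunoglobulin superfamily gene, had -0.42 (adjusted p = 0.0593) and 0.31 (adjusted p = 0.0909) and a difference of 0.73 (SE 0.15, adjusted p = 0.0971). The serotonin receptor gene Htr2a had -0.32 (adjusted p = 0.0753) and 0.31 (adjusted p = 0.0563) and a difference of 0.62 (SE 0.12, adjusted p = 0.0852).

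**Figure D3:**
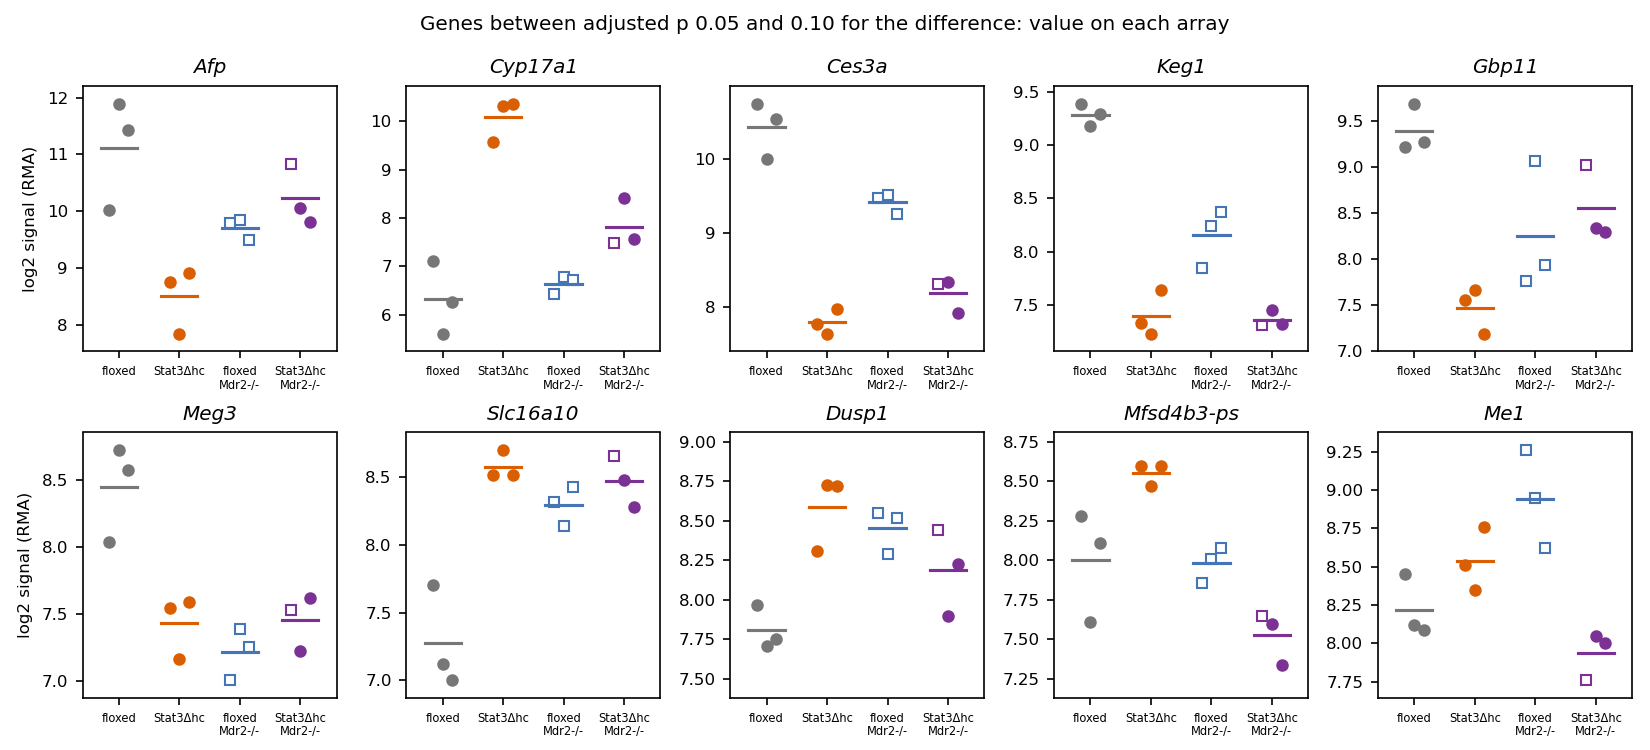
Log2 signal (vertical axis) on each of the 12 arrays, by genotype (horizontal axis), for further genes with an adjusted p under 0.10 for the difference. Points are arrays, filled circles for the Y-linked and open squares for the Xist pattern, and bars are group means. In Afp and Gbp11 Stat3Δhc liver is lowest in mean, and in Cyp17a1 it is highest.

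Interferon response genes and chemokines had positive medians. Of 26 tested interferon response genes, 0 passed at 0.05 and 1 at 0.10, Psmb9, a subunit of the immunoproteasome. It read 8.18, 8.35 and 8.37 in floxed liver, 7.95, 8.04 and 7.89 in Stat3Δhc liver, 8.24, 8.33 and 8.40 in Mdr2-/- floxed liver, and 8.55, 8.52 and 8.68 in the double mutant, with a difference of 0.59 (SE 0.12, adjusted p = 0.0932). Deleted liver lay below floxed liver without the knockout and above it on the knockout. The interferon list's median was 0.22, with 19 members positive and 7 negative. Bst2 of this list went the other way, with a difference of -0.44 (SE 0.14, adjusted p = 0.224). The median of 17 tested chemokines was 0.23, with 13 members positive and 0 passing. Cxcl9, which draws T cells, read 6.59, 7.23 and 7.45, then 6.45, 6.58 and 6.85, then 7.09, 7.07 and 6.65, and then 9.07, 7.82 and 7.94. Array A of the double mutant was highest, and the difference was 1.81 (SE 0.41, adjusted p = 0.136). Cxcl10 of the same family had a difference of 1.68 (SE 0.55, adjusted p = 0.226), or 2.53 in the pattern model. Lymphocyte markers (10 tested) had a median of 0.13, macrophage markers (17 tested) of 0.05 and neutrophil markers (9 tested) of 0.17, and 0 of these passed. Leaving out 1 array, the macrophage median ran from -0.144 to 0.151 and the neutrophil median from -0.0194 (without array A of Mdr2-/- floxed liver) to 0.361, so that neither has a settled direction.

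Cholesterol synthesis genes had a median difference of 0.75 over 21 tested genes. Of these 19 were positive (6197 of 13977 over all genes), and 0 passed at 0.05 or 0.10. In the pattern model the median was 0.42. At an unadjusted p of 0.05, 10 were positive, against 6.67 percent of all genes tested. Msmo1, a sterol demethylase, read 9.91, 8.82 and 9.15 in floxed liver, 9.07, 9.03 and 9.05 in Stat3Δhc liver, 8.85, 9.0 and 8.85 in Mdr2-/- floxed liver, and 10.20, 11.71 and 9.43 in the double mutant, with a difference of 1.79 (SE 0.60, adjusted p = 0.229). Array B of the double mutant stood apart from its own group. The list's mean level lay between 8.15 and 9.51 in the double mutant, with array B highest, and between 8.08 and 8.68 in the other groups. Without that array the list's median difference was 0.44. Insig2, which holds the cholesterol sensor in the endoplasmic reticulum, went the other way, with a difference of -0.79 (SE 0.20, adjusted p = 0.19), or -0.47 in the pattern model.

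In the remaining lists few members passed. Drug-oxidising P450 genes of families 2 and 3 (20 tested) had a median of -0.25 with Cyp3a16 as the only gene to pass. Conjugation and detoxification enzymes (34 tested) had a median of -0.14, 0 passing at 0.05 and Ces3a at 0.10. Gstm6, a glutathione transferase, had effects of 1.33 (adjusted p = 0.0204) and -0.25 (adjusted p = 0.54) and a difference of -1.57 (SE 0.37, adjusted p = 0.144). Lipogenic genes (20 tested) had a median of -0.10 and Me1 as the only gene at 0.10. The list named transcription factors of hepatocytes (28 tested) had a median of -0.03. Olig1 was its only passing gene, and the list was chosen with earlier results of these data known. The immediate early gene Jun had a difference of -0.83 (SE 0.22, adjusted p = 0.207), or -0.51 in the pattern model. Cell cycle genes (30 tested) had a median of 0.19 with 0 passing. Of these, 11 were called lower without the knockout and 3 on it. Over all 13977 genes tested the counts were 150 and 545. Such a contrast in counts is not a test of the difference. Bile duct and progenitor markers (18 tested, median -0.07), cell death genes (25 tested, median 0.04) and hepatocyte markers (17 tested, median -0.02) had 0 passing. Tff3, a mucosal trefoil peptide of the duct list, read 9.44, 9.04 and 8.23 in the double mutant and at most 7.57 elsewhere, with a difference of 1.13 (SE 0.33, adjusted p = 0.224).

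Skeletal muscle, exocrine pancreas and erythroid genes, which mark other tissues, had 0 passing for the difference. Their medians were 0.22 over 25 tested muscle genes, -0.37 over 15 tested pancreas genes and 0.16 over 6 tested erythroid genes. Leaving out 1 array, the pancreas median ran from -1.51 (without array A of Stat3Δhc liver) to 0.70 (without its array C), so that its sign is not settled, and the muscle median ran from 0.071 to 0.323. Of 4 tested sex-linked transcripts 0 passed, and the differences of Xist and the Y-linked Eif2s3y were -3.95 (SE 1.76, adjusted p = 0.285) and 3.10 (SE 1.35, adjusted p = 0.278), with array A of the double mutant apart from its arrays B and C.

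**Figure D4:**
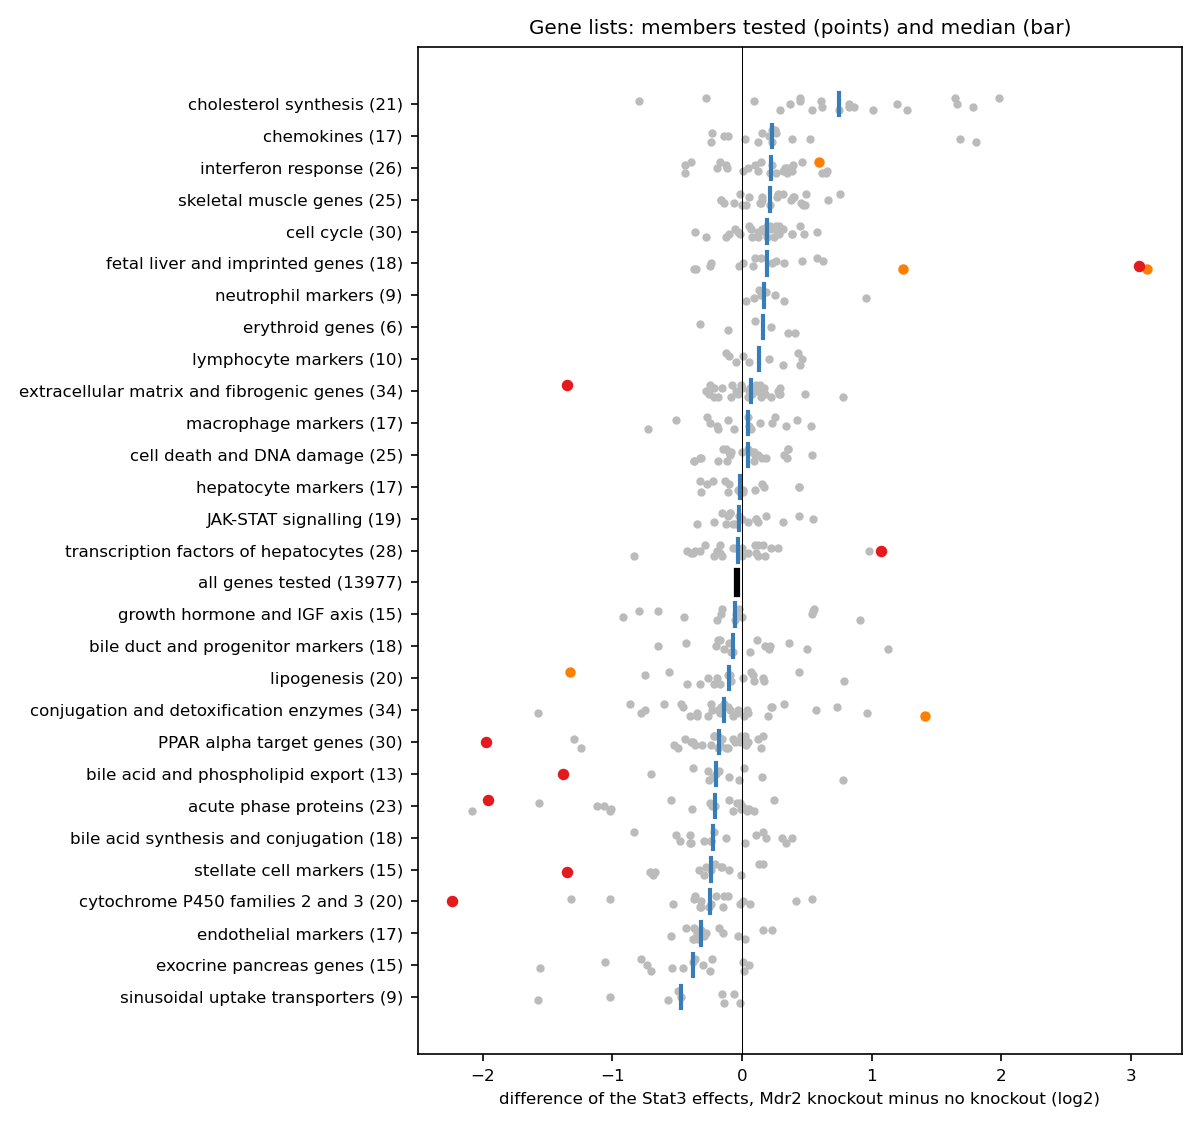
Difference of the Stat3 effects (horizontal axis, log2, Mdr2 knockout minus no knockout) for the members of each gene list (vertical axis, with the number tested). Points are genes, red for an adjusted p under 0.05 and orange for one under 0.10, blue bars are list medians and the black bar is the median of all genes, -0.04. Cholesterol synthesis has a median of 0.75 and uptake transporters one of -0.47.

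The 10 differences changed less in size than in whether they passed. The genes were chosen by this difference on the same arrays, most of which each fit reuses. A kept sign or size is therefore no independent support. Leaving out each array in turn, the differences ranged from 2.79 to 3.34 for Igf2, from -2.54 to -1.94 for Cyp3a16, from -2.21 to -1.80 for Fgl1 and from -1.52 to -1.23 for Abcc3, and each of the 10 kept its sign. The number of these 10 that passed was 0 without array B or C of floxed liver, without A or B of Stat3Δhc liver or without B of the double mutant, with adjusted p between 0.0522 and 0.157. It was 3 without array C of Stat3Δhc liver and 2, 6 and 9 without array A, B or C of Mdr2-/- floxed liver. Without array C of the double mutant it was 8, and without array A of floxed liver it was 10. It was also 10 without array A of the double mutant. In that fit all deleted arrays on the knockout had the Y-linked pattern and all floxed ones there the Xist pattern. Its Stat3 effect on the knockout therefore cannot be told apart from the pattern. With the Xist and Y-linked pattern as a term of the model, 0 of the 10 passed, with adjusted p between 0.0807 and 0.178. The differences then were 3.28 for Igf2, -1.86 for Cyp3a16, -1.36 for Cyp4a31, -2.16 for Fgl1, -1.27 for Abcc3, -1.23 for Ecm1, 1.06 for Olig1, -0.91 for Efemp1, -0.72 for Ctns and -0.71 for Tenm3. Among genes past 0.10 the differences in this model were 3.73 for Afp, 2.69 for Gbp11, 1.31 for Meg3, -2.89 for Cyp17a1, 1.53 for Ces3a, 1.04 for Keg1, -1.50 for Me1, -0.95 for Hhip, -0.94 for Slc16a10 and -0.79 for Dusp1, with adjusted p between 0.0954 and 0.633. In that model the Stat3 effect on the knockout rests on array A of the double mutant, the only deleted array there that shares the pattern of the floxed arrays.

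**Figure D5:**
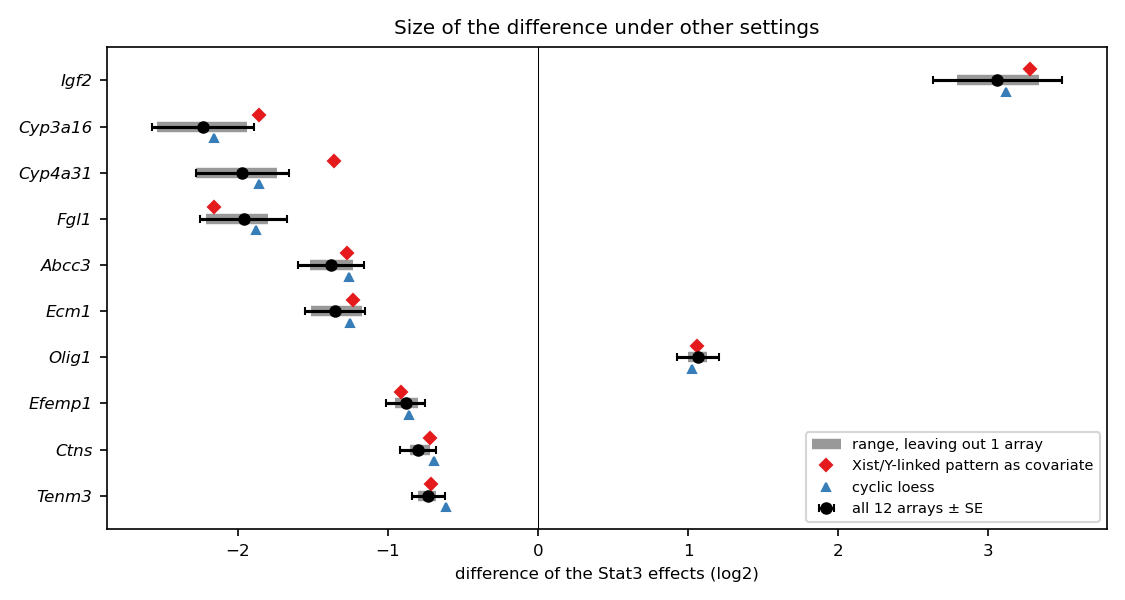
Difference of the Stat3 effects (horizontal axis, log2) for the 10 genes (vertical axis). Black points are estimates on all 12 arrays with standard errors, grey bars the range when 1 array is left out, red diamonds the estimate with the Xist and Y-linked pattern in the model, and blue triangles the estimate after cyclic loess scaling. Every symbol of a gene lies on the same side of 0, and Cyp4a31 moves from -1.97 to -1.36 with the pattern in the model.

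Promoters were searched for the core motif that STAT dimers bind, TTCNNNGAA, which reads the same on both strands. RefSeq windows of GRCm38.p6, from 250 bases before to 50 after an annotated start, were at hand for 6 of the 10 genes, and Tenm3 alone held the motif. At the wider threshold 36 of the 56 genes had a window, and 2 held it (5.56 percent), Tenm3 and Keg1, against 8.02 percent of the 11081 tested genes with a window. Both sequences are shown because they are the only windows searched for these genes with the motif, which is in capitals. The Tenm3 window lies at chr8:48674641-48674940 on the minus strand and the Keg1 window at chr19:12695540-12695839 on the plus strand. The former is at a start inside the annotated gene, away from its outermost start, and no other Tenm3 window was searched.
Tenm3: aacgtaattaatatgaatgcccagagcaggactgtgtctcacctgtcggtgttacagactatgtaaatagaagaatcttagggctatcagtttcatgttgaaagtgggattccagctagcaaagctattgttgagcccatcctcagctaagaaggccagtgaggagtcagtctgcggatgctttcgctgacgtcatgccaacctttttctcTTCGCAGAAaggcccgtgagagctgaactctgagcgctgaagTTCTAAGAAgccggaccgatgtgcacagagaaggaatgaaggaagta
Keg1: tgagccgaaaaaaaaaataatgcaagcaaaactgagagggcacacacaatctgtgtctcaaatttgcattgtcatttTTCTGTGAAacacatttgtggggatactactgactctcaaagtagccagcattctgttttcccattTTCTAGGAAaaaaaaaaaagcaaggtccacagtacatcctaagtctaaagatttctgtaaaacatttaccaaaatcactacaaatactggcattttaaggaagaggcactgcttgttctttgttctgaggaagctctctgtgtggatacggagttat
Each window held 2 matches. Tenm3, as given above, had a Stat3 effect on the knockout, and Keg1 fell in both Mdr2 genotypes. A match describes the letters only and is no evidence of binding, and a window without one says nothing of sites elsewhere.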

How the data were processed

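The log2 signals of Affymetrix Gene 1.0 ST arrays were made by the authors with RMA, as the submitters' processing notes name it without a version. The array build and probe positions are not given in the sources used here. Groups were taken from the sample titles. Among 35556 transcript clusters, 21789 carry 1 gene symbol, 1621 carry several and 12146 carry none. The cluster of highest mean was taken for the 999 genes with more than 1. Of 19938 genes, 13977 were tested, those that exceeded the 40th percentile of the array on 3 or more arrays. All contrasts came from 1 fit of the 12 arrays in 4 groups with limma 3.58.1 (R 4.3.3, lmFit and eBayes, 8 residual degrees of freedom), with Benjamini-Hochberg adjustment over all genes tested. The members and the 29 gene lists (660 genes, 540 tested) were chosen with earlier results of these data known, and no list test was run. Genes named were Stat3 and Abcb4, every gene past 0.05, up to 6 of largest difference per class past 0.10, and up to 3 of smallest p per list, passing over placeholder symbols; for some lists fewer are printed. On simulated data, the fit recovered 22, 88, 94 and 100 percent of 50 genes each whose difference was 1.5-, 2-, 3- and 4-fold. There were 6 false calls among 13977 genes. The simulated noise was normal and independent between genes and arrays, without the Xist and Y-linked split. More genes were changed than passed here, which eases the adjusted threshold. These shares are therefore not the power on these arrays. Alternatives covered filter, probe choice, scaling, moderation, array weights, the replicate letter, the Xist and Y-linked pattern and leaving out each array. Whether the letters pair the arrays is not given in the sources used here. Deviations of same-letter arrays correlated between -0.409 and 0.366 (median -0.058), and those of different letters between -0.373 and 0.482 (median 0.012). These ranges cannot settle it. Figures used matplotlib 3.10.9 and Python 3.11.15.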

Additional observations from a re-analysis of the deposited data

Results flagged for a closer look

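The 10 genes past the threshold differ in their Stat3 effect between the Mdr2 genotypes by a test of that difference itself (limma, Benjamini-Hochberg adjusted). The differences were 3.06 for Igf2, -2.23 for Cyp3a16, -1.96 for Fgl1, -1.35 for Ecm1, 1.07 for Olig1, -0.88 for Efemp1 and -0.73 for Tenm3, each with adjusted p = 0.038. They were -1.97 for Cyp4a31, -1.38 for Abcc3 and -0.8 for Ctns, each with adjusted p = 0.0387. The pattern of Xist and Y-linked transcripts splits the double mutant, and it was entered only as the covariate described above. That fit rests on array A of the double mutant and cannot separate the pattern from this array's own deviation. The part of the pattern in these results is therefore not settled.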

How the results depend on the processing

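For the difference, 10 genes passed; the number was 6 with no filter, 23 with trend and robust eBayes, 567 with array weights (array A of Stat3Δhc liver then had a weight of 9.01, the others 0.26 to 2.86), 6 with the Xist and Y-linked covariate, 56 at an adjusted p of 0.10 and 0 to 64 leaving out 1 array. With the replicate block it was 3 (Ecm1, Fgl1 and Olig1), and whether the letters pair the arrays is not known. Igf2 was not among the 23 with trend and robust eBayes. With no filter, Abcc3, Ctns, Cyp4a31 and Tenm3 did not pass. With cyclic loess 11 genes passed, but not Abcc3 (limma adjusted p = 0.0918) or Tenm3 (limma adjusted p = 0.0908). For the Stat3 effect without the knockout, 361 genes became 2955 with array weights, 237 with the replicate block and 69 to 753 leaving out 1 array. On the knockout, 806 became 2298, 473 and 302 to 1475, and 37 with the covariate. The same-sign share of genes called without the knockout was 74.5 percent with array weights, 93 with the covariate and 84.8 to 97.1 leaving out 1 array. For genes called on the knockout it was 84.2 with cyclic loess, 74.4 with array weights, 86.3 with the replicate block, 83.8 with the covariate and 63.1 to 88 leaving out 1 array. The 1475 genes and the 63.1 percent came without array A of the double mutant, where Stat3 deletion on the knockout runs fully with the pattern. With an effect counted as present from 0.3, reversals numbered 15, strengthened genes 3 and small ones 0. From 0.8 the counts were 0 reversals, 8 masked, 11 appearing, 2 weakened and 34 small. Cyclic loess moved list medians to 0.101 (JAK-STAT), -0.1 (bile acid synthesis), -0.116 (export), 0.0414 (transcription factors), -0.17 (stellate) and -0.211 (endothelial). The covariate moved them to 0.00756 (acute phase), 0.0742 (JAK-STAT), -0.0394 (bile acid synthesis), -0.0695 (export), -0.0219 (matrix), 0.0995 (cell death), -0.168 (endothelial), 0.572 (neutrophil), 0.424 (cholesterol synthesis) and -0.62 (pancreas). Array weights gave -0.272 (uptake), 0.15 (matrix) and 1.33 (pancreas), and the 60th percentile filter -0.0868 (cell death). Leaving out 1 array, medians ran from -0.248 to -0.122 (export), -0.121 to 0.0741 (bile duct), -0.0868 to 0.0589 (cell death), -0.364 to -0.219 (endothelial), -0.0595 to 0.0592 (JAK-STAT), 0.0618 to 0.286 (lymphocyte), -0.144 to 0.151 (macrophage), -0.565 to -0.224 (uptake), -0.292 to -0.164 (stellate), -0.0968 to 0.0162 (transcription factors), -0.0194 to 0.361 (neutrophil), 0.439 to 0.914 (cholesterol synthesis) and -1.51 to 0.696 (pancreas). Where a median changed sign, its direction is not settled. The causes were not tested. The 10 genes kept their sign in all settings run, which their choice by this difference on the same arrays favours.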

Other observations

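With the Xist and Y-linked pattern in the model, 6 genes passed for the difference that did not pass without it, named here after their values were seen. Nos2, the inducible nitric oxide synthase of activated macrophages, read 6.9, 5.9 and 6.05 in the double mutant and between 5.27 and 5.69 on the other 9 arrays, with a difference of 1.45 (adjusted p = 0.0398). Csf2rb2, a cytokine receptor subunit, read 7.71, 6.97 and 6.85 in the double mutant, and its difference was 1.55 (adjusted p = 0.0465). Cxcl9 had 2.6 and Igfbp3 had -1.29 (both adjusted p = 0.0398). Cacna1b, a neuronal calcium channel gene, had 1.85 (adjusted p = 0.0432) and the placeholder gene Gm12250 had 1.5 (adjusted p = 0.0398). For Nos2, Csf2rb2, Cxcl9 and Cacna1b array A of the double mutant was highest, and for Igfbp3 it was lowest. It is the only double mutant array with high Xist, and in this model the estimate rests on it.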
